A study of Mus musculus with 4 samples.

Results

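The genes described are 10 epithelial keratins of the mouse seminal vesicle, in the simple class (Krt7, Krt8, Krt18, Krt19 and Krt20) and the stratified or basal class (Krt4, Krt5, Krt14, Krt15 and Krt17). They were chosen by gene symbol in the platform's annotation, which gave all 10 genes and 15 probe sets, of 8251 genes and 10833 single-gene probe sets on the array. The samples were seminal vesicles of 4 mice of the C57Bl/6J background aged 15 months, all wild type at Nkx3.1 (Nkx3.1 +/+), with no treatment named, and each was hybridised to 1 Affymetrix array. All 4 belonged to a single group, so no genotypes, ages or tissues were compared. Values are on the log2 scale, 1 per probe set, and their precision is limited by having 4 arrays. The labels do not say whether the mice shared a litter or cage, and p-values measure the spread between these 4 samples.

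Keratins are the intermediate filament proteins of epithelial cells. A type I keratin assembles with a type II keratin, and the pair in use marks the kind of epithelium. Krt8 (type II) and Krt18 (type I) form the usual filaments of single-layered epithelia, where Krt7, Krt19 and Krt20 are added in some ducts and linings. Krt5 (type II) and Krt14 (type I) form those of basal cells. Krt15 is a basal keratin, Krt17 is found in skin appendages and injured epithelium, and Krt4 is a type II keratin of internal stratified linings. In male accessory glands, secretory luminal cells are known for Krt8 and Krt18, and basal cells for Krt5 and Krt14.

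Krt8 and Krt18 lie next to each other on mouse chromosome 15 on opposite strands, with no protein-coding gene between them in the RefSeq table of assembly GRCm38.p6, and Krt4, Krt5 and Krt7 lie on the same chromosome. Krt14, Krt15, Krt17, Krt19 and Krt20 lie on chromosome 11. The stretches around the annotated start are shown for the Krt8 and Krt18 pair, which gave clear signal, beside Krt7, Krt20 and Krt5, which did not. These are the members with a sequence at the gene's start in the table used. Each runs 5′ to 3′ from 250 bases before to 30 bases after the start (RefSeq, GRCm38.p6). Capitals mark the letters TATAA and GGGCGG on either strand.
Krt8, chr15:102004313-102004592 (minus strand): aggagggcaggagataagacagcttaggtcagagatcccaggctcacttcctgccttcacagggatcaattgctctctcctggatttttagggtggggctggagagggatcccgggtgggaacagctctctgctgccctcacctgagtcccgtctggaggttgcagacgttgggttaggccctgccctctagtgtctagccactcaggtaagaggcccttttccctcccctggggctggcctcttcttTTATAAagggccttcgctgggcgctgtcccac
Krt18, chr15:102027966-102028245 (plus strand): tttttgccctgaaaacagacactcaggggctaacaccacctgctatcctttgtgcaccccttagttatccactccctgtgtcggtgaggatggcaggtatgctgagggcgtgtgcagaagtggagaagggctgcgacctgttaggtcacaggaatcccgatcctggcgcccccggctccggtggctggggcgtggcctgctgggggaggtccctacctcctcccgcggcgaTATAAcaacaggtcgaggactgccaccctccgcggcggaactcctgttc
Krt7, chr15:101412153-101412432 (plus strand): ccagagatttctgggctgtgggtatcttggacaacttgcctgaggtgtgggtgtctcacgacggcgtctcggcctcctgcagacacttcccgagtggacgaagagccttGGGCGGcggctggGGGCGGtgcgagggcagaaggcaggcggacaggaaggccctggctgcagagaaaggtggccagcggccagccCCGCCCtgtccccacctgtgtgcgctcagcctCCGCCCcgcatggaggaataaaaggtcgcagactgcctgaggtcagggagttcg
Krt20, chr11:99438124-99438403 (minus strand): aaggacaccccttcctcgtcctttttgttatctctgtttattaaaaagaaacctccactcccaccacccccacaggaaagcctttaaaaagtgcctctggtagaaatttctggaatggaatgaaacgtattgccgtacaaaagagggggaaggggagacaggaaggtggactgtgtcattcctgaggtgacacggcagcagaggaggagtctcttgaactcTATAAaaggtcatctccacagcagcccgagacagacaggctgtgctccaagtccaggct
Krt5, chr15:101712876-101713155 (minus strand): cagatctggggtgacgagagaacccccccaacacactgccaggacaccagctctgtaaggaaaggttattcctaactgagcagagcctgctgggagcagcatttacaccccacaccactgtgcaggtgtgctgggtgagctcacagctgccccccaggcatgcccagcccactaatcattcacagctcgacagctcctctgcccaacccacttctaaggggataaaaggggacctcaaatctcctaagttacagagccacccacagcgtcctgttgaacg
TATAA begins 1 base before the annotated start of Krt8, where it overlaps its match on the other strand, 19 bases before that of Krt18 and 29 bases before that of Krt20, so it occurred with and without signal. Krt7 holds GGGCGG 4 times, counting both strands, and the Krt5 window holds neither motif. Of 32851 mouse windows of this length, 24.0% hold TATAA and 34.7% hold GGGCGG. The letters TGANTCA, searched on both strands, occur in none of the 5 windows and in 7.46% of all. A match of letters is not a binding site.

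Whether a probe set gave signal was judged on each array against a background range, set by 126 probe sets that read 106 genes typical of other organs, at their 90th percentile. This limit was 6.10, 5.87, 6.01 and 6.16 in mice 1 to 4, with a mean of 6.03. A gene counted as above the range when at least 1 of its probe sets exceeded the limit on all 4 arrays, as 2498 of 8251 genes (30.3%) did. Among other-organ genes, which set the limit, 11 of 106 were above it. The tissue label fitted its markers: the secretory protein genes Svs2, Svs4, Svs5, Svs6 and Sva, which encode major proteins of seminal fluid, averaged between 10.68 and 13.09.

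Of the simple keratins, 3 of 5 were above the background range: Krt8, Krt18 and Krt19. Of the stratified or basal keratins, 2 of 5 were, Krt4 and Krt17. By probe set, 5 of 15 were above, against 24.7% of all 12422. With 5 genes in a class, these counts do not separate the classes. The means of Krt8, Krt18 and Krt19 stood 2.47, 2.13 and 2.05 above the mean limit on the log2 scale, those of Krt4 and Krt17 0.59 and 0.29 above it. Such a distance depends on the probes as well as on the RNA, as the 2 probe sets of Krt18, with means of 8.17 and 2.11, show, and it was not used to compare the classes.

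**Figure D1:**
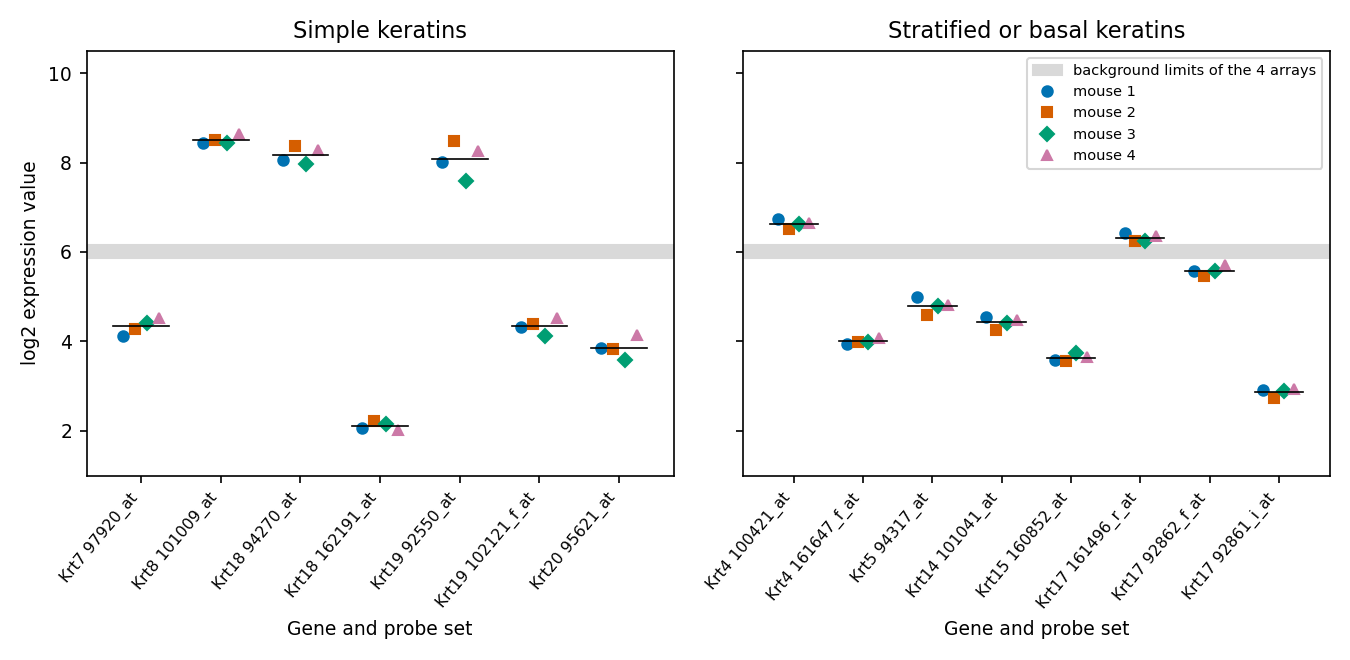
log2 expression value (vertical axis) of each of the 15 keratin probe sets (horizontal axis) in the 4 mice, with a symbol per mouse, a black line at the mean and a grey band from the lowest to the highest background limit of the arrays. Krt8, Krt18 and Krt19 each have a probe set near 8, Krt4 and Krt17 each have one just over the band, and the other probe sets lie below it.

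Krt8, the type II partner of the simple pair, is read by probe set 101009_at. It had 8.44, 8.50, 8.43 and 8.63 in mice 1 to 4, with a mean of 8.50 ± 0.09 (SD, n = 4 mice). The 4 values lay within 0.20 log2 units of each other.

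Krt18, its type I partner, is read by 94270_at and 162191_at. The first had 8.06, 8.37, 7.97 and 8.27 in mice 1 to 4 (mean 8.17 ± 0.19, SD, n = 4). Mice 2 and 4 were the higher ones and mice 1 and 3 the lower ones. The other, 162191_at, averaged 2.11 ± 0.09 (SD, n = 4), below the limit on every array, and was lowest in mouse 4.

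Krt19, a type I keratin of glands and ducts that lacks most of the usual tail domain, is read by 92550_at and 102121_f_at. The first had 8.02, 8.48, 7.58 and 8.25 in mice 1 to 4 (mean 8.08 ± 0.38, SD, n = 4). Mouse 2 exceeded mouse 3 by 0.90 log2 units, or 1.87-fold. The dim second probe set, at 4.32, 4.39, 4.12 and 4.52, was also lowest in mouse 3 but was highest in mouse 4. Its suffix _f is the manufacturer's mark for probes shared within a sequence family.

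The other simple keratins were not above the range on any array. Krt7 (97920_at) had 4.12, 4.28, 4.42 and 4.53 in mice 1 to 4 (mean 4.34 ± 0.18, SD, n = 4). Krt20 (95621_at), which is known from intestine and the surface cells of the urothelium, had 3.85, 3.82, 3.59 and 4.14 (mean 3.85 ± 0.22, SD, n = 4). Mouse 4 was highest for both genes, while the lowest was mouse 1 for Krt7 and mouse 3 for Krt20. A value under the limit does not show that a gene was silent.

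The basal pair stayed below the range. Krt5 (94317_at) had 4.98, 4.60, 4.79 and 4.81 in mice 1 to 4 (mean 4.80 ± 0.16, SD, n = 4). Krt14 (101041_at) had 4.55, 4.25, 4.41 and 4.49 (mean 4.42 ± 0.13, SD, n = 4). Mouse 1 was highest and mouse 2 lowest for both. Krt15 (160852_at) had 3.59, 3.57, 3.73 and 3.65 (mean 3.64 ± 0.07, SD, n = 4), with all 4 values within 0.16 log2 units.

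The stratified keratins Krt4 and Krt17 exceeded the limit narrowly and by 1 probe set each. Krt4 had 6.73, 6.51, 6.62 and 6.65 in mice 1 to 4 by 100421_at (mean 6.63 ± 0.09, SD, n = 4), whereas its 161647_f_at lay between 3.95 and 4.08. Krt17 had 6.43, 6.25, 6.25 and 6.35 by 161496_r_at (mean 6.32 ± 0.09, SD, n = 4), a probe set whose suffix _r marks probes picked under relaxed rules. Its other probe sets were not above, with 92862_f_at at 5.58 ± 0.10 and 92861_i_at at 2.87 ± 0.09 (SD, n = 4 each). With the limit moved to the 95th percentile, Krt17 was no longer above the range, and 1 stratified keratin remained, Krt4. At that limit 22.2% of all genes were above, against 30.3% in the main setting.

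Keratins of hair, a skin appendage, gave values over the same limit. Of 12 measured hair keratins, 6 were above the range (Krt33b, Krt35, Krt36, Krt81, Krt83 and Krt86), with means between 6.53 and 8.40, among them Krt36 at 8.40 ± 0.09, Krt35 at 7.72 ± 0.05 and Krt81 at 7.65 ± 0.14 (SD, n = 4 each). Krt31, Krt32 and Krt34 were not, at 3.45 ± 0.08, 5.96 ± 0.11 and 3.87 ± 0.04 (SD, n = 4 each). The probe sets of Krt36 and Krt35 that exceeded the limit both carry the suffix _r. Whether these probe sets read other transcripts was not tested. The 90th percentile of the 19 hair keratin probe sets was also used as the limit, a choice made after seeing the data. Krt8 and Krt18 remained above it on all arrays and no stratified keratin did. Of all 8251 genes, 575 (6.97%) were above it, and these counts do not separate the classes. That limit was 7.67, 7.59, 7.75 and 7.57 in mice 1 to 4, so Krt19, at 7.58 in mouse 3, was under it there.

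The remaining epithelial keratins of skin and mouth were above the range in 1 of 9 cases, Krt6b at 6.58 ± 0.12 (SD, n = 4). Krt1, Krt2 and Krt6a were not, at 4.56 ± 0.13, 5.59 ± 0.08 and 5.93 ± 0.16 (SD, n = 4 each). Of other intermediate filament genes 2 of 13 were above, the nuclear lamin gene Lmna at 8.17 ± 0.13 and the muscle gene Des, which encodes desmin, at 7.19 ± 0.23. Vim, the mesenchymal vimentin gene, was not above at 3.98 ± 0.22, nor were the glial and neuronal genes Gfap (4.74 ± 0.15) and Prph (3.64 ± 0.13; SD, n = 4 each).

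Keratin filaments are anchored at desmosomes and hemidesmosomes. Of 16 measured genes in the list of keratin linkers and junction proteins, 7 were above the range (Dsp, Jup, Pkp2, Dsg2, Ppl, Itgb4 and Krtcap2), or 43.8%. Dsp, which encodes the desmoplakin that ties keratin to the desmosome, had 6.81 ± 0.18, and the plakophilin gene Pkp2 had 7.19 ± 0.19 (SD, n = 4 each). Krtcap2, whose protein is a subunit of the oligosaccharyltransferase despite its name, had 9.29 ± 0.09 (SD, n = 4). The plakophilin genes Pkp1, Pkp3 and Pkp4 were not above on all arrays, at 5.39 ± 0.21, 5.80 ± 0.16 and 6.07 ± 0.29 (SD, n = 4 each).

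Markers of the epithelial layers were counted in the same way. In the luminal list, which holds no keratin, 12 of 19 genes were above the range. The surface genes Cd24a, Prom1 and Cd9 had 10.35 ± 0.14, 8.59 ± 0.13 and 8.50 ± 0.14 (SD, n = 4 each), while Epcam (4.23 ± 0.29), Ocln (4.21 ± 0.12) and Spint1 (6.34 ± 0.18) were not above on all arrays. In the basal list 3 of 15 were above: Perp, a desmosome-associated gene, at 8.11 ± 0.40, the P-cadherin gene Cdh3 at 7.07 ± 0.08 and the integrin gene Itgb4 at 6.24 ± 0.05. Trp63, the basal cell transcription factor gene, had 5.04 ± 0.04, and the laminin genes Lamb3 and Lama3 had 5.83 ± 0.08 and 4.47 ± 0.06, none of them above on all arrays (SD, n = 4 each). No test between lists was run.

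Lists for tissues that could be carried over with the gland were counted too. Urothelium had 2 of 7 genes above the range, Gata3 at 8.78 ± 0.30 and the plaque gene Upk2 at 6.67 ± 0.15, with Upk3b at 5.92 ± 0.16 and Krt13 at 3.45 ± 0.16 not above on all arrays. Epidermis and squamous epithelium had 2 of 13, Sprr1b at 9.39 ± 0.09 and Lor at 6.66 ± 0.10, with Ivl (2.58 ± 0.05), Flg (4.73 ± 0.15) and Sprr2d (5.54 ± 0.16) under it. Both Sprr1b and Lor passed by a probe set of suffix _r. The other probe set of each gene was below the limit on every array, with means of 2.67 for Sprr1b and 5.56 for Lor. Mesothelium had 0 of 6, with Msln at 4.42 ± 0.05 and Wt1 at 3.95 ± 0.15 (SD, n = 4 each). Their part in the keratin values was not tested.

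**Figure D2:**
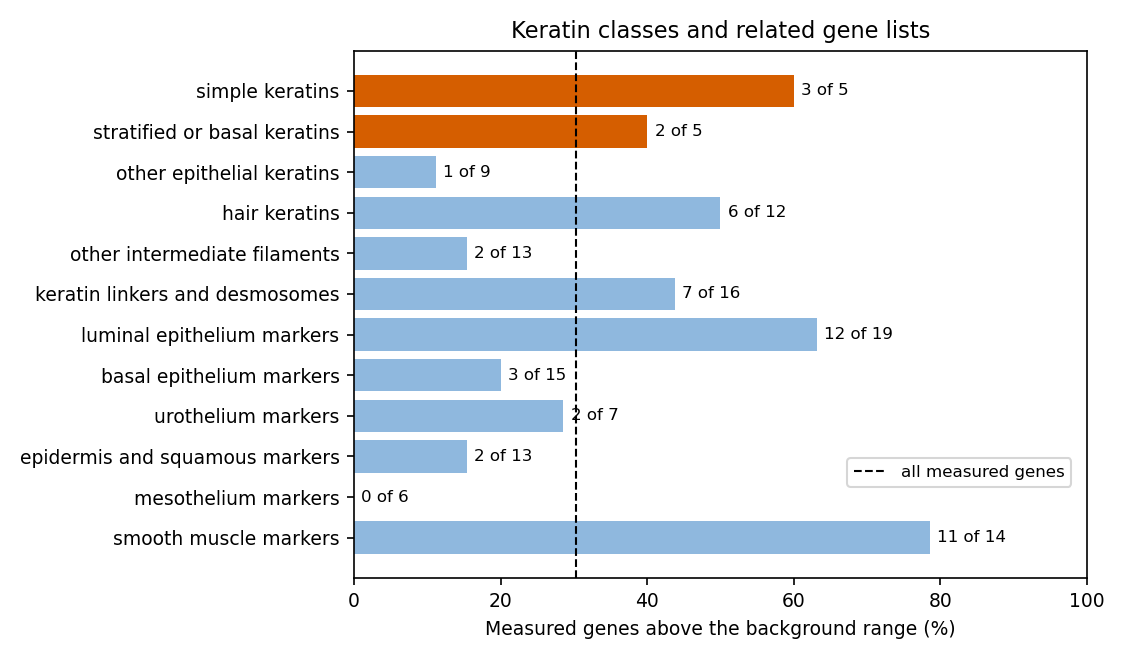
Share of the measured genes above the background range on all 4 arrays (horizontal axis, percent) for the simple and the stratified or basal keratins (orange) and 10 related gene lists (blue), with the count beside each bar and a dashed line at the 30.3% of all genes. Simple keratins (3 of 5), stratified or basal keratins (2 of 5), hair keratins (6 of 12), linkers (7 of 16), luminal markers (12 of 19) and smooth muscle (11 of 14) pass the line.

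The second question was whether keratin levels differed between the mice by more than probe sets do in general. Each probe set's variance across the arrays was tested against the prior variance that limma fits to the whole table, and was called at an adjusted p threshold of 0.05. None of the 15 keratin probe sets was called by limma (0 of 15, against 0.282% or 35 of all 12422), and 1 of 15 had an unadjusted p under 0.05, against 5.44% of all. That one was Krt19 by 92550_at, with an SD of 0.38, an unadjusted p = 0.00624 and an adjusted p = 0.473 (limma). Its SD would have had to reach 0.68 to be called. Of the 2498 genes above the range, 31 had a larger SD than Krt19, 400 a larger one than Krt18 (0.19) and 1610 a larger one than Krt8 (0.09), with a median of 0.11. A missed call does not show that a keratin was equal in the mice.

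The simple keratins above the range shared their lowest mouse. All 3 were lowest in mouse 3, where 23.7% of the genes above the range had their lowest value. Krt18 and Krt19 were highest in mouse 2, as were 29.5% of those genes, and put the mice in the same order (2, 4, 1, 3), which 153 of the 2498 genes (6.12%) had. Krt8 was highest in mouse 4 and differed less, and its values in mice 3 and 1 were close, at 8.43 and 8.44. The mean deviation of Krt8, Krt18 and Krt19 from their own 4-mouse means was -0.08, 0.20, -0.26 and 0.13 in mice 1 to 4, a span of 0.46 log2 units. Without Krt19 the span of the other two was 0.25, with mouse 4 highest and mouse 3 still lowest. Without mouse 3 the span of all 3 was 0.28 and mouse 1 was lowest. No test was made of this pattern, and 4 mice are too few for a correlation across samples. In bulk tissue, fewer epithelial cells and less keratin RNA per cell cannot be told apart. With 1 array per mouse, a difference between mice cannot be told apart from a difference between arrays either.

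The stratified or basal keratins put the mice in another order. By the brightest probe set of each gene, all 5 were lowest in mouse 2 and 4 of 5 were highest in mouse 1. Some gaps were slight: Krt17 had 6.25 in both mouse 2 and mouse 3, and Krt15 had 3.57 in mouse 2 and 3.59 in mouse 1. Of all genes, 23.5% of those above the range and 26.2% of the others were highest in mouse 1. The dimmer probe sets of Krt4 and Krt17 were each highest in mouse 4, and that of Krt4 was lowest in mouse 1. By the brightest probe sets, the mean deviation of the 5 genes was 0.10, -0.12, -0.0004 and 0.03 in mice 1 to 4, a span of 0.22. Low values in mouse 2 were common: 37.6% of the genes not above the range and 31.7% of those above it were lowest there. The 6 hair keratins above the range had mean deviations of 0.06, -0.07, -0.02 and 0.03 in mice 1 to 4. Of these, 3 of 6 were highest in mouse 1 and 3 of 6 lowest in mouse 2. The median deviation of the 8459 probe sets above the limit on no array was 0.01, -0.04, 0.01 and 0.02. With arrays shifted to the same median or quantile-normalized, 3 of 5 stratified keratins were lowest in mouse 2, while the 3 simple keratins above the range stayed lowest in mouse 3 under both. Without mouse 2 the span of the stratified keratins was 0.0957. The mean deviation of the 3 simple keratins above the range minus that of all 5 stratified ones was -0.17, 0.32, -0.26 and 0.10 in mice 1 to 4. With all 5 simple keratins, whose own mean deviation was highest in mouse 4, it was -0.18, 0.23, -0.19 and 0.15. This difference was not tested.

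**Figure D3:**
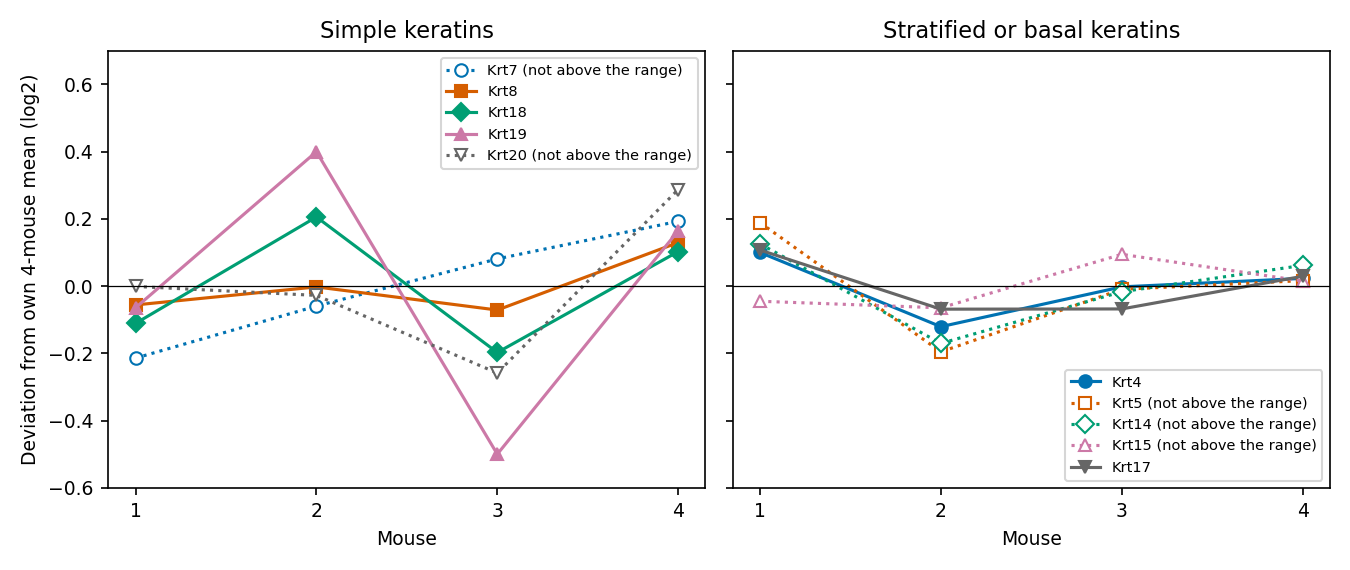
Deviation of each keratin from its own 4-mouse mean (vertical axis, log2) in mice 1 to 4 (horizontal axis), by the brightest probe set of each gene. Filled symbols and solid lines mark genes above the background range, open symbols and dotted lines the others, and lines only join the values of a gene. Krt19 spans 0.90 and Krt18 0.40, both lowest in mouse 3, and the stratified keratins stay within 0.2 of their means.

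Other epithelial and stromal genes were set beside these shifts. The 12 luminal genes above the range had mean deviations of -0.01, 0.09, -0.06 and -0.02 in mice 1 to 4. Of these, 6 of 12 were highest in mouse 2 and 6 of 12 lowest in mouse 3, against 29.5% and 23.7% of all genes above the range. Others went the opposite way: 3 of 12 were highest in mouse 3 and 2 of 12 lowest in mouse 2, against 26.5% and 31.7%. Only 1 of 12 was highest in mouse 4, against 20.5%. The 3 basal genes above the range had -0.10, 0.18, -0.07 and -0.0007. The value in mouse 2 came from Perp, at 8.71 there against 7.86 to 8.01 in the others. Cdh3 was lowest in mouse 2, as the basal keratins were, and Itgb4 was highest in mouse 3. Over all 15 measured basal genes the mean deviations were -0.01, 0.01, -0.01 and 0.01. The 7 genes of the linker list had -0.08, 0.10, -0.05 and 0.03. Of these, 4 of 7 were highest in mouse 2 and 2 of 7 lowest in mouse 3, against the same 29.5% and 23.7%. The 4 include Krtcap2, which is not a linker. Its other probe set, also above the range, was lowest in mouse 2, at 8.51 against 8.79 to 8.94. Smooth muscle genes had 11 of 14 above the range, among them Tagln (10.76 ± 0.26), Actg2 (10.17 ± 0.28) and Cnn1 (10.01 ± 0.41; SD, n = 4 each), with Tpm2, Flna and Hspb1 not above. All 11 were highest in mouse 1, as were 23.5% of all genes above the range, with mean deviations of 0.34, -0.18, -0.04 and -0.13. As a measure of RNA quality, the 3' signal of beta-actin exceeded its 5' signal by 1.08, 0.82, 1.02 and 0.98 log2 units, lowest in mouse 2. For Gapdh the same difference was -0.12, -0.15, -0.15 and -0.13, which did not single out mouse 2. The part of stroma and of RNA quality in the keratin shifts was not tested.

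**Figure D4:**
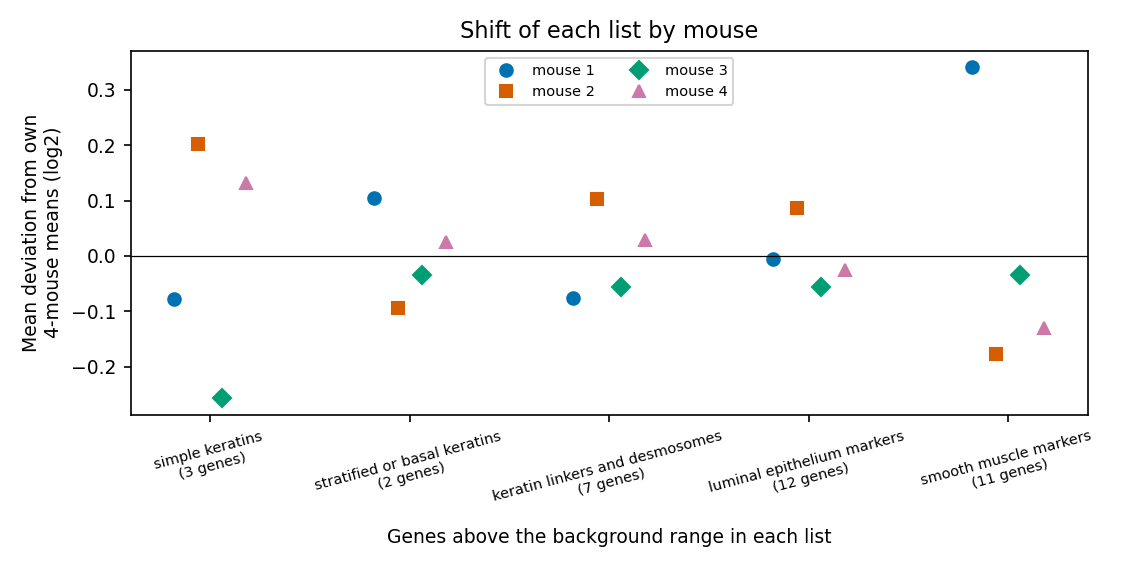
Mean deviation of the genes above the background range in 5 lists from their own 4-mouse means (vertical axis, log2), with a symbol per mouse. Simple keratins span -0.26 in mouse 3 to 0.20 in mouse 2, smooth muscle genes are highest in mouse 1 at 0.34, and the 2 stratified keratins above the range span 0.20.

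The genes nearest to Krt19 over the 4 mice were found among 3084 other single-gene probe sets with a mean above the limit, by the Euclidean distance between deviations. They were Eid1 (distance 0.0625), Mrpl52 (0.136), Use1 (0.143), Pdcd4 (0.151) and Cirbp (0.152). Eid1, an inhibitor of histone acetyltransferases, had 6.34, 6.88, 5.96 and 6.65 in mice 1 to 4, so mouse 2 was highest and mouse 3 lowest as for Krt19. These probe sets of Eid1 and Cirbp were under the limit in mouse 3, at 5.96 and 5.83 against 6.01. By distance to Krt19, Krt18 ranked 66 (distance 0.368) and Krt8 703 (0.589). Those nearest to Krt8, which hardly differed between the mice, were T2, Sh2d2a, Myh14, Usp15 and Kifc1, at distances of 0.0101 to 0.0281. With 4 points and 3084 candidates, near profiles are a description of these arrays.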

How the data were processed

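The deposited table holds log2 expression values per probe set, made by the authors with RMA per the submitters' processing notes. The RMA version and the set of arrays normalized jointly are not stated in these sources. Values between 1.47 and 13.18 show the log2 scale, and nothing was transformed further. RMA reduces shifts shared by all probe sets of an array. As deposited, 40.1% of the probe sets above the limit on no array were lowest in mouse 2, and 30.1% after quantile normalization. Per the labels' protocols, Trizol-extracted total RNA was biotin-labelled and hybridised to Mu74AV2 GeneChips.

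Of 12488 probe sets, 66 controls were left out of tests. Names came from the platform annotation: 10833 probe sets had 1 gene, 396 several and 1193 none, and all 10 keratins matched RefSeq by gene ID. The brightest probe set by mean stood for a gene. Probes differ in affinity, so levels were set against the arrays' limits and not gene against gene. Those limits come from probe sets of other genes, and a distance from a limit depends on the probes too. Array medians lay between 4.95 and 4.98, and Pearson's r over probe sets between 0.992 and 0.994 for the 6 pairs of arrays. At most 1 probe set had equal values on both arrays of a pair. Mouse numbers follow accession order and are names only.

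Variances (3 residual degrees of freedom) were tested by an upper-tail F test against limma's prior, fitted robustly with mean signal as trend (8.06 prior degrees of freedom), with Benjamini-Hochberg adjustment over 12422 probe sets at 0.05. The test was checked on simulated data. The members, the 12 gene lists and the tests were chosen with earlier results of these data known. All member probe sets are named. From each other list the rule named called genes, up to 3 of highest mean above the range and the first 3 not above it, and it named the 5 nearest profiles of Krt8 and of the most variable member. Hair keratins Krt33b, Krt83 and Krt86 and linkers Jup, Dsg2 and Ppl were named after their values were seen. Alternatives covered array scaling, leaving out each mouse, the prior fit, dim probe sets, the background limit and how probe sets are combined. The software was limma 3.58.1 under R 4.3.3, and Python 3.11.15 and matplotlib 3.10.9.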

Additional observations from a re-analysis of the deposited data

Results flagged for a closer look

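None of the 15 keratin probe sets had a mouse that stood apart from the other three by Dixon's gap test for groups of 4. Among the 65 probe sets tested, 3 did, about as many as the 1 in 20 that chance flags. The 65 were the keratin probe sets and those that the naming rule took from the other lists. Epcam, the epithelial adhesion gene, had 4.67 in mouse 2 against 4.05 to 4.14 in the others. Trp63, the basal transcription factor gene, had 4.99 in mouse 3 against 5.05 to 5.07, a gap smaller than the median SD of 0.11 over all probe sets. Wt1, a mesothelial gene, had 4.17 in mouse 1 against 3.86 to 3.89. None of the 3 exceeded the background limit on any array. Genes named in other ways were not tested for such a gap. Among them, Jup had 6.92 in mouse 2 against 6.65 to 6.68 in the others and exceeded the limit on all 4 arrays.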

How the results depend on the processing

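No paired analysis was possible because the labels give a single group. Leaving out each mouse, both rescalings, either change of the prior fit and a filter on dim probe sets all left 0 keratin probe sets called by limma, with 0 to 2 of them at an unadjusted p under 0.05, and Krt19 (92550_at) had adjusted p-values from 0.297 to 0.929. The number of calls among all probe sets, 35, was 15 with a non-robust prior, 23 without mouse 2, 17 without mouse 4 and 0 with the 3461 probe sets above the mean limit alone (191 at an unadjusted p under 0.05). With a gene's probe sets averaged, 1 simple keratin (Krt8) and 0 stratified keratins were above the range, since the dim second probe sets of the others entered the mean. Stratified keratins numbered 1 (Krt4) at the 95th percentile and with probe sets of suffix _f, _i, _r or _s left out, and 0 with the hair keratin limit. The last 2 settings were chosen after seeing the data, and under them 3 and 2 simple keratins were above. All genes above the range numbered 2498 (30.3%) in the main setting. They numbered 1962 (23.8%) with probe sets averaged, 1830 (22.2%) at the 95th percentile and 2159 (26.2%) with those suffixes left out. At the 75th percentile they numbered 4545 (55.1%), with each array's median 4569 (55.4%) and with the hair keratin limit 575 (6.97%). Leaving out a mouse gave spans of 0.278 to 0.457 for the simple keratins and of 0.0957 to 0.219 for the stratified ones, the lowest without mouse 2. With 4 arrays and a limit set by other-organ genes, differences of dim keratins under that limit were not detectable with any confidence.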
